A study of Mus musculus with 24 samples.

Results

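The regions described here carried an accessibility peak in cultured keratinocytes that expressed SOX9 together with ARID1a, and in none of the other 6 culture arms. Peaks of the 7 culture lists were merged where they overlapped by at least 1 bp, which gave 97078 regions, and 2840 of these held a SOX9+ARID1a peak alone. Each of the 2840 regions consisted of 1 peak, so they made up 2840 of the 57982 peaks of that list (4.90%, 95% Wilson interval 4.73 to 5.08). The regions were chosen by the presence and absence of a called peak, so their absence from the other culture lists is a description and not a result. Over all culture regions, the share chosen in this way was 2.93%. A SOX9+ARID1a peak without a noDOX peak was present in 12882 regions (13.3%), and the 2840 made up 22.0% (21.3 to 22.8) of these.

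Accessibility was profiled by ATAC-seq, in which the transposase Tn5 cuts and tags DNA that is not wrapped in nucleosomes. The profiled cells came from male CD1 animals carrying K14rtTA, in which the Krt14 promoter drives the doxycycline (DOX)-dependent activator rtTA in basal keratinocytes. Primary back skin keratinocytes were cultured without DOX (noDOX, K14rtTA; TRE-myc-Sox9) or with DOX at 1 µg/ml, with wild-type SOX9 (WT-SOX9, same genotype), SOX9 without its HMG domain (dHMG-SOX9, TRE-myc-Sox9noHMG), SOX9 without its transactivation domain (dTA-SOX9, TRE-myc-Sox9noTA), the AP1 inhibitor AFOS (K14rtTA; TRE-FLAG-AFOS, no Sox9 transgene), SOX9 and AFOS (TRE-myc-Sox9; TRE-FLAG-AFOS), or SOX9 and ARID1a (TRE-myc-Sox9; TRE-ARID1a). Per the study's methods, the versions of SOX9 compared with each other, AFOS and the coding sequence of Arid1a were all brought into cells by lentivirus, followed by puromycin selection. By that account, the versions of SOX9 went into K14rtTA cells. AFOS and Arid1a went into K14rtTA cells or into cells that already carried TRE-myc-Sox9. The source of SOX9 in the SOX9+AFOS and SOX9+ARID1a arms thus differed from that in WT-SOX9, and the part of this in the comparisons was not tested. In vivo, epidermal stem cells of K14rtTA; TRE-myc-Sox9 back skin were sorted before DOX (D0, postnatal day 21) and after 1, 2 and 6 weeks of DOX (W1, day 28; W2, day 35; W6, day 63), and, after 12 weeks (W12), from skin of this genotype grafted onto immunocompromised Nude hosts. Every group had 2 replicates that the authors pooled before calling peaks, so each group is 1 peak list, and differences between lists have no replicate check. By the labels, no arm received the ARID1a construct without SOX9. With the arms as labelled, a contribution of added ARID1a alone and one of ARID1a acting with SOX9 cannot be told apart.

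ARID1a is the large DNA-binding subunit of the BAF form of the SWI/SNF complex, an ATP-driven machine that slides and ejects nucleosomes, and it is needed for the activity of many enhancers. SOX9 is the transcription factor that specifies hair follicle stem cells, and its HMG domain bends DNA at its binding site and lets it engage sites in closed chromatin. AP1, a dimer of FOS and JUN family proteins, is abundant at enhancers of the basal epidermis and is known to bring BAF to them. AFOS pairs with JUN proteins and keeps the dimer from binding DNA.

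The sequences below show the central 200 bp of 8 of the regions, read from GRCm38.p6 on the plus strand, since the results turn on which binding sequences these regions hold. Capitals mark the AP1 consensus (TGACTCA or its reverse complement TGAGTCA) and the SOX consensus (ACAATAG or ACAATGG, or their reverse complements). The first set holds the 3 regions with the highest scores, named by the nearest protein-coding transcription start site (TSS). The region nearest to Ankrd49 was scanned at chr9:14810273-14810472, that nearest to Cabin1 at chr10:75739505-75739704 and that nearest to Itpk1 at chr12:102668421-102668620. The first and the last of these held an AP1 match, and none of the 3 held a SOX match.
Ankrd49: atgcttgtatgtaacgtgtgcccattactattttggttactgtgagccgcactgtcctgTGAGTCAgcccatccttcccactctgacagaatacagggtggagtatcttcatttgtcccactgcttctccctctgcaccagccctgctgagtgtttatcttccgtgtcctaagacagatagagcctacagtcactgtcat
Cabin1: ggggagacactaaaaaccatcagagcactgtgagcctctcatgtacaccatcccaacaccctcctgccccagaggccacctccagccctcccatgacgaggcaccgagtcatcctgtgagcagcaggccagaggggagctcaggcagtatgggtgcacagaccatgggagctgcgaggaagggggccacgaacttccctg
Itpk1: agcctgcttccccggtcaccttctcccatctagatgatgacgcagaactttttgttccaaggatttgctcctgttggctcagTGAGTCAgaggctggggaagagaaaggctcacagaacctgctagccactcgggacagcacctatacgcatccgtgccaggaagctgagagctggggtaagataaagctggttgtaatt

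The second set holds the 3 regions with the highest in vivo scores among those with no peak at D0 and a peak at W2, W6 and W12. They were scanned at chr13:64376574-64376773 (nearest to Ctsl), chr13:90203217-90203416 (nearest to Tmem167) and chr19:38778899-38779098 (nearest to Noc3l). The Tmem167 region held 1 SOX and 1 AP1 match, the Noc3l region held 1 SOX match, and the Ctsl region held neither.
Ctsl: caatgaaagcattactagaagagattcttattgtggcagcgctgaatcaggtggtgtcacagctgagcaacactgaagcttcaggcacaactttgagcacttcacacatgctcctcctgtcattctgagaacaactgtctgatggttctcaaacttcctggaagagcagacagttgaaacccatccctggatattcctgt
Tmem167: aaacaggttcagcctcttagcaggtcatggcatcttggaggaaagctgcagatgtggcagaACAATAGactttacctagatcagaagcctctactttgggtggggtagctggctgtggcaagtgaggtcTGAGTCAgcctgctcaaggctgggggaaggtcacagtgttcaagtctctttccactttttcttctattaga
Noc3l: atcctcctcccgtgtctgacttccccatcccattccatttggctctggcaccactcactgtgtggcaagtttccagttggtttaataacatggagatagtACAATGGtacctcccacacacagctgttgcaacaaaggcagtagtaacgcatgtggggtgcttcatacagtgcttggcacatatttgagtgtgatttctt

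The last set holds the 2 highest-scoring regions with a SOX match, at chr8:8612643-8612842 (nearest to Efnb2) and chrX:140805718-140805917 (nearest to Tex13b).
Efnb2: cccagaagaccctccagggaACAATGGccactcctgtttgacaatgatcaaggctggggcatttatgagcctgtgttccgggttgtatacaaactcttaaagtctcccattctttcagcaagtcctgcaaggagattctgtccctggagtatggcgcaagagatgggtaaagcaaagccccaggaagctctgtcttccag
Tex13b: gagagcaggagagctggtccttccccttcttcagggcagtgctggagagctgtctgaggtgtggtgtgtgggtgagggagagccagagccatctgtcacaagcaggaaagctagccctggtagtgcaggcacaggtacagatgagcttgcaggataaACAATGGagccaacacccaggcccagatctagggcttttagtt

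Some properties of the lists touch all results on these regions. The authors kept peaks with a normalised score of at least 3, and the score sum of the 7 culture lists lay between 925672 and 971784. Similar sums do not make scores equal between lists. In the 24536 regions present in all 7, the median log2 ratio to the median of the other lists ran from -0.21 (SOX9+ARID1a) to 0.16 (noDOX). The highest score ran from 236 (SOX9+AFOS) to 2310 (noDOX). The part of this in the choice of the regions was not tested, and the number of reads behind the scores is unknown. The SOX9+ARID1a list and both lists with AFOS carry peak names of another form than the other 4 culture lists, and AP1 matches lay off the centre of peaks in some of them. In the 2840 regions the AP1 matches above the background lay on average at -29.6 bp from the peak centre, and in the 4100 regions open in AFOS alone at -28.8 bp, against -0.2 bp (noDOX), -2.3 bp (dHMG-SOX9), -6.0 bp (WT-SOX9) and 3.9 bp (dTA-SOX9) in the regions open in each of those alone. The part of this shift in the results was not tested. Of the marker genes, all 6 keratinocyte markers (Krt5, Krt14, Trp63, Itga6, Itgb4 and Cdh1) had a peak within 1 kb of a TSS in the SOX9+ARID1a list, against 0 of 4 immune markers, 1 of 4 endothelial markers (Kdr), 1 of 5 fibroblast markers (Pdgfra) and 2 of 5 melanocyte markers (Mitf and Pmel). The SOX9+AFOS list, used for comparison below, held 4 of 5 melanocyte markers (also Dct and Mlana), against 1 or 2 in the other culture lists, and the part of this in the comparisons was not tested.

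Peaks over the exons of Arid1a bear on the label of the arm. Arid1a is read from the minus strand (chr4:133679008-133756769, GRCm38), and its exons make up 11.0% of the gene. Of the 20 SOX9+ARID1a peaks in the gene, 15 lay at least 50% in exons, with scores of up to 38.2 and a score sum of 206. The lists of noDOX, dHMG-SOX9 and dTA-SOX9 each held 1 such peak, with scores of 4.81, 5.43 and 7.47, and the WT-SOX9 list and the 5 in vivo lists held 0. The AFOS list, however, held 9 such peaks (highest score 8.69, sum 49.4) and the SOX9+AFOS list 7 (highest score 7.86, sum 36.3), although neither genotype includes ARID1a. The number of exon peaks in these 2 lists labelled without the construct was thus above that of the other lists labelled without it. Whether they hold construct DNA cannot be told from peak lists. As absence from both lists helps to define the 2840 regions, the name SOX9+ARID1a alone holds only as far as these labels do. Of the 2840 regions, 6 lay in Arid1a, all of them at least 50% exonic, with scores of 11.8, 11.3, 10.2, 6.43, 4.52 and 3.96, and the part of construct DNA in them was not tested. Elsewhere, no gene other than Arid1a held more than 1 of the 51 regions that were centred in a coding exon. Without these 6, the shares given below differed little: AP1 matches lay in 26.7% and SOX matches in 8.19% of the other 2834 regions.

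The regions had lower scores than the other peaks of their list. Their median score was 4.24, the middle 50% lay between 3.46 and 5.65, and the highest score was 24.2. The other 55142 SOX9+ARID1a peaks had a median of 10.6. The regions open in 1 of the other arms alone had medians of 5.03 (WT-SOX9, 5864 regions), 4.62 (SOX9+AFOS, 5518 regions), 4.11 (dTA-SOX9, 4886 regions), 3.91 (AFOS, 4100 regions), 3.79 (noDOX, 1364 regions) and 3.71 (dHMG-SOX9, 1041 regions). Of the 2840 regions, 33.6% (31.9 to 35.3) scored at least 5 and 132 (4.65%) scored at least 10. Sets that are open in 1 arm alone thus sat near the score minimum, and the median of the SOX9+ARID1a set was above those of 4 of the other 6. The plot of scores shows the sets of SOX9+ARID1a, WT-SOX9, SOX9+AFOS and AFOS.

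**Figure D1:**
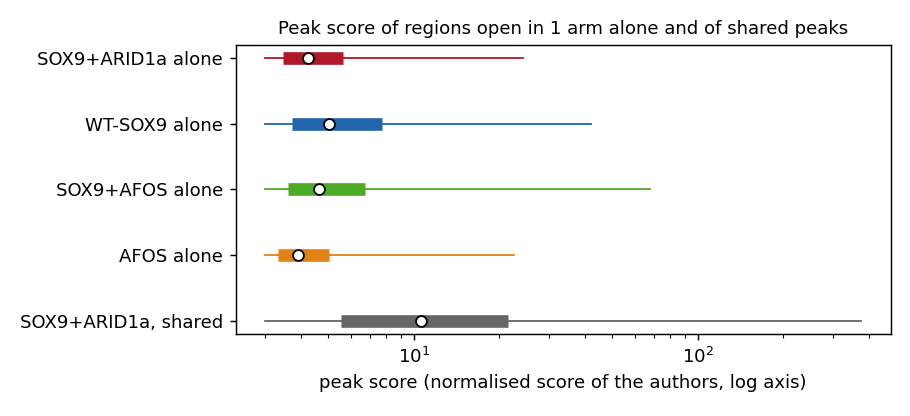
Peak score (log axis) of the regions open in SOX9+ARID1a, WT-SOX9, SOX9+AFOS or AFOS alone and of the SOX9+ARID1a peaks shared with at least 1 other arm. Circles are medians, thick bars the middle 50% and thin lines the full range; the median was 4.24 for SOX9+ARID1a alone and 10.6 for the shared peaks.

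At the border of the rule, 761 of the 2840 regions (26.8%) scored under 3.5. The lowest scores were 3.0 near Agap1 (chr1:89659254-89659472), 3.01 near Fam69a (chr5:107966340-107966547) and 3.01 near Atp2c2 (chr8:119716711-119716996). Just outside, 5031 regions held a SOX9+ARID1a peak and a peak of 1 other list, and in 679 of them that other peak scored under 3.5. The 3 with the lowest score in the other list were near Ankrd50 (3.05 in SOX9+ARID1a and 3.0 in WT-SOX9), Trmt44 (4.0, and 3.0 in dTA-SOX9) and Tigd4 (8.78, and 3.0 in noDOX). Most often the other list was WT-SOX9 (1714 regions) or SOX9+AFOS (1698 regions), and least often dHMG-SOX9 (91 regions). By the rule no peak of the other 6 lists overlaps a region, and the gap to the nearest such peak had a median of 3765 bp, with 15.8% of the regions within 1 kb and 58.9% within 5 kb of one.

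The 20 highest-scoring regions, with scores from 14.3 to 24.2, lay in introns, between genes and in 1 case in a UTR. Of these, 5 held an AP1 match, 1 a SOX match and 8 a GATA match, 10 overlapped an in vivo peak and 5 lay on chromosome 5. The first, in an intron of Mre11a and 25517 bp upstream of the TSS of Ankrd49 (chr9:14810154-14810592), scored 24.2, held the AP1 match shown above and had no peak in any in vivo list. The second, in an intron of Cabin1 (chr10:75739392-75739817), which encodes an inhibitor of calcineurin, scored 23.0, had neither match and was absent in vivo. Another, in an intron of Itpk1 (chr12:102668343-102668698), an inositol phosphate kinase gene, scored 21.1, held an AP1 match and had an in vivo peak at W12 alone, with a score of 5.29.

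The next regions differed in their state in skin. The region 6443 bp upstream of Cyp24a1 (chr2:170503391-170503785), which encodes the enzyme that breaks down active vitamin D, scored 19.9 and was present at all 5 in vivo time points, with scores of 8.80, 4.33, 6.27, 5.23 and 14 from D0 to W12. The region 4875 bp upstream of Acsm4 (chr7:119684865-119685436) scored 19.1 and had in vivo scores of 63.5, 53.4, 13.4, 5.06 and 12.4 from D0 to W12. It was thus highest in uninduced epidermis. The region near Cir1 (chr2:73336437-73336821, in a UTR of Scrn3) scored 17.6 and was present throughout in vivo, with scores between 35.6 and 60.3. The region 40275 bp upstream of Gclc (chr9:77714040-77714480), a glutathione synthesis gene, scored 17.9, held an AP1 match and was absent at every in vivo time point. Both the Acsm4 and the Cir1 region were therefore strong in skin although no other culture list held them.

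The regions were distal. Only 61 (2.15%, 1.68 to 2.75) were centred within 1 kb of a TSS, against 19.9% (19.6 to 20.3) of the other SOX9+ARID1a peaks, 2.02% (1.76 to 2.31) of the shared SOX9+ARID1a peaks with no noDOX peak, and 2.95% (2.55 to 3.42) of the regions open in WT-SOX9 alone. The distance to the nearest TSS had a median of 26087 bp. Introns held 1556 regions (54.8%, 53 to 56.6), against 45.4% (45.1 to 45.7) of all other culture regions. The interval overlapped that of the shared SOX9+ARID1a peaks with no noDOX peak, of which 52.3% (51.3 to 53.3) were intronic. A further 1184 (41.7%) were intergenic, 51 lay in coding exons and 49 in UTRs. The highest-scoring region within 1 kb of a TSS, 98 bp downstream of that of Nedd4l, a ubiquitin ligase gene, scored 11.4 and had an in vivo peak at W2 alone (3.92). The GC content had a median of 48.1%, which was close to the 48.5% of the regions open in SOX9+AFOS alone and above the 43.2% of those open in WT-SOX9 alone.

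The regions held more AP1 and fewer SOX matches than those open in WT-SOX9 alone, and their AP1 share was near that of the regions open in noDOX alone. An AP1 match lay in the central 200 bp of 756 regions (26.6%, 25 to 28.3), against 21.8% (21.5 to 22.1) of all other culture regions and 24.4% (24.0 to 24.8) of the other SOX9+ARID1a peaks. The share was 11.1% (10.4 to 12) in regions open in WT-SOX9 alone, 2.39% (2.02 to 2.83) in those open in SOX9+AFOS alone and 32.6% (31.2 to 34.1) in those open in AFOS alone. It was 26% (23.8 to 28.4) in those open in noDOX alone, 33.2% (31.8 to 34.5) for dTA-SOX9 alone and 17.7% (15.5 to 20.1) for dHMG-SOX9 alone. A SOX match lay in 232 regions (8.17%, 7.22 to 9.23), which was above the 6.29% (6.14 to 6.45) of all other culture regions and the 5.86% (5.66 to 6.05) of the other SOX9+ARID1a peaks, and below the 19.2% (18.2 to 20.2) of the regions open in WT-SOX9 alone. The shared SOX9+ARID1a peaks with no noDOX peak held a SOX match in 12.9% (12.3 to 13.6) and an AP1 match in 18.4% (17.6 to 19.1), so against these the SOX share of the 2840 regions was lower and the AP1 share higher. The intervals do not overlap in these SOX comparisons, but they cover counting error only. The SOX share was 7.07% (6.42 to 7.77) for SOX9+AFOS alone and 5.86% (4.59 to 7.46) for dHMG-SOX9 alone. Both of these intervals overlap that of the 2840 regions. For AFOS alone (5.46%, 4.81 to 6.20), noDOX alone (4.33%, 3.37 to 5.54) and dTA-SOX9 alone (3.85%, 3.34 to 4.42) the intervals lay below it. Among regions over 1 kb from a TSS, AP1 matches lay in 26.4% (24.8 to 28.1) of 2779 and in 29.2% (28.8 to 29.6) of the other SOX9+ARID1a peaks, so that the order of these sets turned. Against the 24.6% (24.3 to 24.9) of all other culture regions over 1 kb from a TSS the AP1 intervals overlapped. In distal regions, SOX matches lay in 8.24% (7.27 to 9.32) of the 2779 and in 6.78% (6.55 to 7.02) of the other SOX9+ARID1a peaks. The AP1 share also rests on the rule, which asks for absence from both lists with the AP1 inhibitor. With those lists ignored, a setting chosen after seeing the data, 5389 regions qualified and 19.9% (18.9 to 21) of them held an AP1 match, which is below the 21.8% given above.

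The comparison with regions that the SOX9+ARID1a list shares with 1 other list shows where these matches lie. Regions with a peak in SOX9+ARID1a and WT-SOX9 only had a SOX match in 21.9% (20 to 23.9) of 1723 peaks and an AP1 match in 21.4% (19.5 to 23.4). Regions with a peak in SOX9+ARID1a and SOX9+AFOS only had a SOX match in 7.99% (6.80 to 9.38) of 1702 peaks and an AP1 match in 5.82% (4.80 to 7.03). The 2840 regions were therefore near the second set in SOX matches and above both sets in AP1 matches. The second SOX core, ACAAAG, gave a similar order, with 21.3% (19.9 to 22.9) of the 2840 regions, 41.1% (39.8 to 42.3) of those open in WT-SOX9 alone and 18.4% (17.4 to 19.4) of those open in SOX9+AFOS alone. Within the 2840 regions, 52 held both an AP1 and a SOX match, 704 AP1 without SOX, 180 SOX without AP1 and 1904 (67.0%, 65.3 to 68.7) neither, and the median scores of these 4 groups lay between 4.22 and 4.36.

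In all, 25 consensus sequences were searched. Beside SOX, the KLF, T-box and E-box (CAGCTG) shares were higher than in all other culture regions, and the CTCF, ETS (CCGGAAGT), homeobox (TAATTA) and POU (ATTTGCAT) shares were lower, with intervals apart both over all regions and over those more than 1 kb from a TSS. RUNX shares had overlapping intervals in both. For GATA and TEAD the reading changed with the distance to a TSS: over 1 kb away, GATA matches lay in 10.6% (9.49 to 11.8) of the 2779 regions and 10.3% (10.1 to 10.5) of all other culture regions, and TEAD matches in 16.4% (15.1 to 17.9) and 18.6% (18.4 to 18.9). The shares that follow are over all regions. RUNX matches (TGTGGT) lay in 17.6% (16.2 to 19) of the 2840 regions and 17.5% (17.3 to 17.8) of all other culture regions. TEAD matches (GGAATG) lay in 16.4% (15.1 to 17.9) and 17.1% (16.8 to 17.3), against 26.4% (25.2 to 27.5) of the regions open in SOX9+AFOS alone. GATA matches (AGATAA) lay in 10.6% (9.55 to 11.8) and 9.26% (9.08 to 9.45), against 13.3% (12.5 to 14.2) of those open in WT-SOX9 alone. KLF matches (GGGTGTGG or GGGCGTGG) lay in 7.64% (6.72 to 8.68) and 5.26% (5.12 to 5.40), against 2.52% (2.15 to 2.96) for WT-SOX9 alone and 9.44% (8.70 to 10.2) for SOX9+AFOS alone. The other SOX9+ARID1a peaks held a KLF match in 6.99% (6.78 to 7.20), an interval that overlaps that of the 2840 regions. T-box matches (AGGTGTGA) lay in 58 regions (2.04%, 1.58 to 2.63), against 1.25% (1.18 to 1.32) of all other culture regions. The T-box interval overlapped those of the shared SOX9+ARID1a peaks with no noDOX peak (1.54%, 1.32 to 1.80), of AFOS alone (1.51%, 1.18 to 1.93) and of SOX9+AFOS alone (1.41%, 1.13 to 1.76). The E-box share was 14.9% (13.7 to 16.3) against 12.9% (12.7 to 13.1), the homeobox share 1.97% (1.52 to 2.55) against 3.36% (3.25 to 3.48) and the POU share 0.599% (0.374 to 0.957) against 1.09% (1.02 to 1.15) of all other culture regions, and 1 region held an ETS match. In the shared SOX9+ARID1a peaks with no noDOX peak, the E-box share was 13.2% (12.5 to 13.8) and the homeobox share 2.60% (2.31 to 2.93). Their POU share was 0.730% (0.582 to 0.915) and their ETS share 0.108% (0.0606 to 0.194). Each of these intervals overlaps that of the 2840 regions. CTCF, the insulator protein, had a match in 5 regions (0.176%, 0.0752 to 0.411), against 2.20% (2.11 to 2.30) of all other culture regions and 3.68% (3.21 to 4.21) of those open in SOX9+AFOS alone. In the peaks of SOX9+ARID1a and WT-SOX9 only the share was 0.174% (0.0592 to 0.511). All motifs were searched on both strands, and the T-box and KLF consensus overlap in their letters, as do KLF and RUNX. A match is a string of letters and no evidence that the factor was bound.

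**Figure D2:**
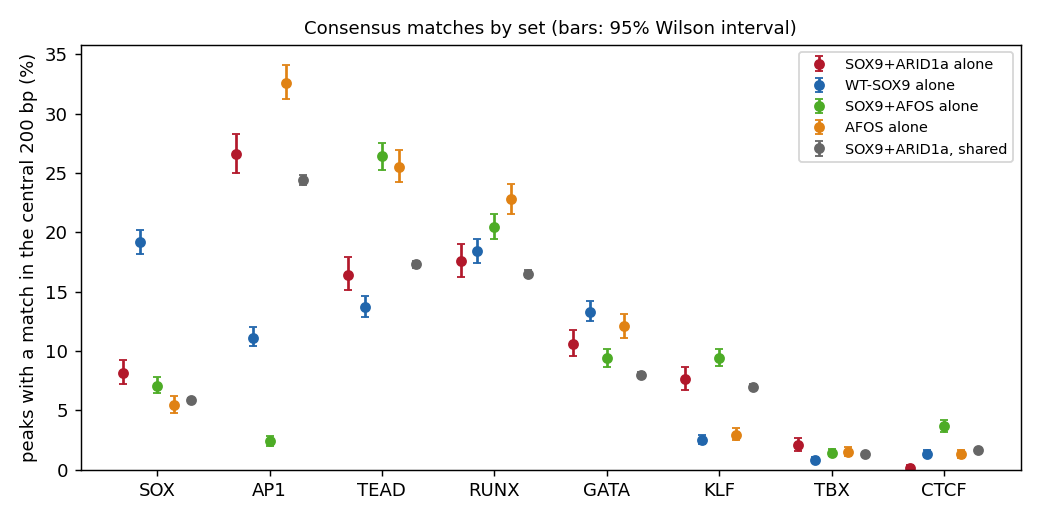
Share of peaks with a match to each consensus in the central 200 bp, for the regions open in 1 arm alone and for the shared SOX9+ARID1a peaks. Points are percentages and bars 95% Wilson intervals; AP1 matches reached 26.6% in SOX9+ARID1a alone and 2.39% in SOX9+AFOS alone, and SOX matches 8.17% against 19.2% in WT-SOX9 alone.

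The shares were also compared within ranges of scores. From the lowest to the highest range (3 to 4, 4 to 6 and above 6), AP1 matches lay in 25.1%, 27.4% and 28.4% of the 2840 regions and in 2.75%, 2.36% and 2.01% of those open in SOX9+AFOS alone. SOX matches lay in 7.87%, 8.42% and 8.36% of the 2840 regions and in 17.0%, 20.4% and 20% of those open in WT-SOX9 alone. The SOX difference from WT-SOX9 alone and the AP1 difference from SOX9+AFOS alone were therefore present in each range. In the other SOX9+ARID1a peaks, SOX matches lay in 6.87%, 6.62% and 5.52% and AP1 matches in 23.5%, 24.3% and 24.6%, and in both lower ranges the intervals of these peaks and of the 2840 regions overlapped.

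The position of the matches was examined next. In the 2840 regions, 3.16% of regions per 20-bp bin held an AP1 match within 40 bp of the peak centre and 0.275% at 300 to 500 bp from it, an 11.5-fold difference. The ratio was 4.10 in the regions open in WT-SOX9 alone and 0.789 in those open in SOX9+AFOS alone, where AP1 matches were not more frequent at the centre. It was 13.8 in those open in AFOS alone and 9.38 in the other SOX9+ARID1a peaks, so a high ratio was common to the peaks of this list. The highest AP1 bin of the 2840 regions lay at -70 bp, which is outside the 40 bp used for this ratio. For SOX matches the ratio was 1.91 in the 2840 regions, 4.27 for WT-SOX9 alone and 1.77 for SOX9+AFOS alone. For TEAD matches it was 1.82, 1.29 and 3.01.

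**Figure D3:**
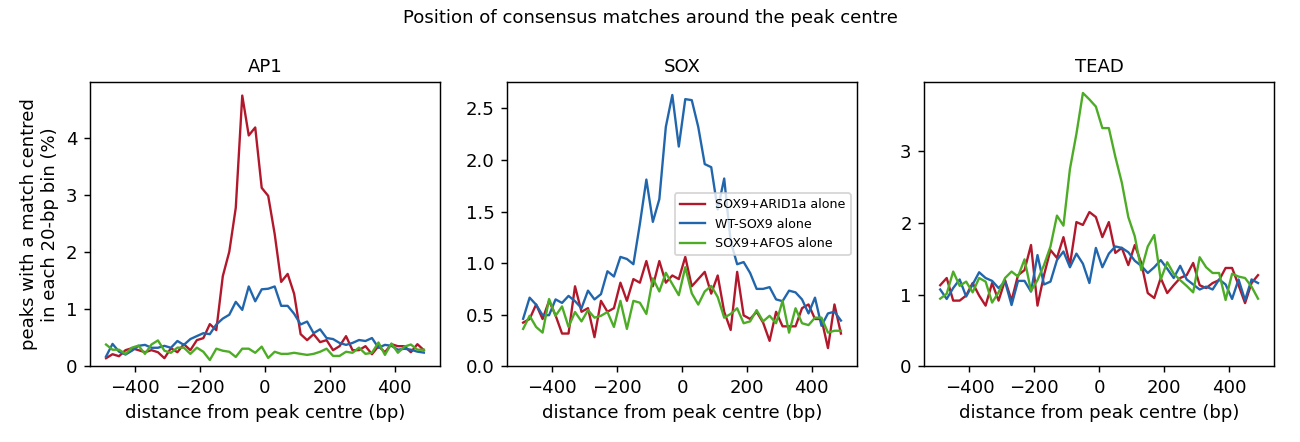
Share of regions with a match centred in each 20-bp bin, by distance from the peak centre (bp), for AP1, SOX and TEAD in the regions open in SOX9+ARID1a, WT-SOX9 or SOX9+AFOS alone. AP1 matches in SOX9+ARID1a alone are most frequent at -70 bp and are 11.5-fold over the flanks within 40 bp of the centre, against 4.27-fold for SOX matches in WT-SOX9 alone and 3.01-fold for TEAD matches in SOX9+AFOS alone; each panel has its own vertical scale.

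In skin, 1031 of the 2840 regions (36.3%, 34.6 to 38.1) overlapped a peak of at least 1 of the 5 in vivo lists. This was below the 60.3% (60.0 to 60.6) of all other culture regions, above the 26.4% (25.3 to 27.6) of those open in WT-SOX9 alone and near the 38.5% (37.2 to 39.8) of those open in SOX9+AFOS alone. The D0 list held 17.1% (15.8 to 18.5) of the 2840 regions, the W1 list 16.1% (14.8 to 17.5), the W2 list 20.1% (18.6 to 21.6), the W6 list 24.9% (23.3 to 26.5) and the W12 list 25.6% (24.1 to 27.3). The W12 share was 1.5 times that at D0. It was 2.74 times in the regions open in WT-SOX9 alone (6.43% and 17.6%), 1.80 times in those open in dTA-SOX9 alone, 1.21 times in those open in SOX9+AFOS alone (17.3% and 21%), 2.08 times in the shared SOX9+ARID1a peaks with no noDOX peak and 1.31 times in all other culture regions (39.6% and 51.9%). Nearest to the ratio of the 2840 regions were those of AFOS alone (1.43) and dHMG-SOX9 alone (1.40), and that of noDOX alone was 1.22. The in vivo lists also grew, from 57334 peaks at D0 to 75956 at W6 and 71503 at W12, and the part of list size in these ratios was not tested.

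**Figure D4:**
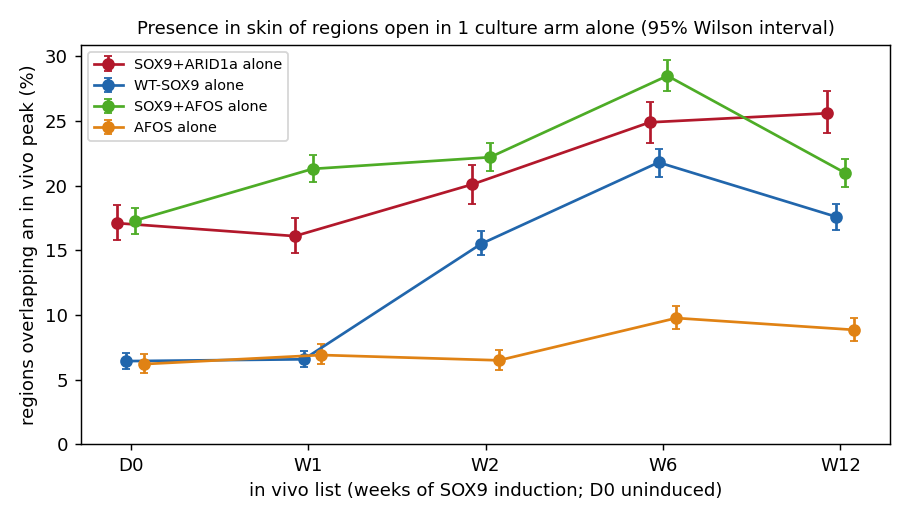
Share of regions open in 1 culture arm alone that overlap an in vivo peak, by time of SOX9 induction in skin. Bars are 95% Wilson intervals; the share for SOX9+ARID1a alone was 17.1% at D0 and 25.6% at W12, and that for WT-SOX9 alone 6.43% and 17.6%.

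Across the 5 lists, 257 regions (9.05%, 8.05 to 10.2) were present at every time point and 110 (3.87%, 3.22 to 4.65) at W2, W6 and W12 only. In all other culture regions these shares were 31.9% and 5.30%. In the shared SOX9+ARID1a peaks with no noDOX peak they were 10.1% (9.55 to 10.7) and 11.7% (11.1 to 12.3). Against these peaks the intervals for every time point overlapped, and the share at W2, W6 and W12 only was lower. In the regions open in another arm alone, presence at every time point ran from 2.39% (AFOS) to 21.3% (noDOX). Regions absent at D0 and present at W2, W6 or W12 numbered 505 (17.8%, 16.4 to 19.2), against 19.6% (19.4 to 19.9) of all other culture regions and 31.5% (29.3 to 33.7) of the peaks in SOX9+ARID1a and WT-SOX9 only. The reverse, a peak at D0 and none at W2, W6 and W12, was seen in 61 regions (2.15%, 1.68 to 2.75), against 1.01% (0.948 to 1.08) of all other culture regions and 0.307% (0.194 to 0.485) of the regions open in WT-SOX9 alone. It was near the 1.98% (1.64 to 2.38) of those open in SOX9+AFOS alone and the 3.0% (2.29 to 3.92) of the peaks in SOX9+ARID1a and SOX9+AFOS only. The 505 regions held an AP1 match in 32.7% (28.7 to 36.9) and a SOX match in 10.1% (7.76 to 13.0). The 486 regions present at D0 held them in 27.6% (23.8 to 31.7) and 4.94% (3.34 to 7.24), and a GATA match in 15.8% (12.9 to 19.4) against 7.72% (5.70 to 10.4) of the 505. The 1809 regions without an in vivo peak held an AP1 match in 25.2% (23.2 to 27.2) and a SOX match in 8.68% (7.47 to 10.1).

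The in vivo levels of single regions show these patterns. The region 5784 bp upstream of Ctsl (chr13:64376475-64376872), which encodes the lysosomal protease cathepsin L, scored 3.11 in culture and was absent at D0 and W1, with in vivo scores of 38.0, 20.3 and 18.9 at W2, W6 and W12. The region near Tmem167 (chr13:90203196-90203438), with both matches shown above, scored 5.74 in culture and 12.9, 33.1 and 23.8 at W2, W6 and W12. The region in an intron of Plce1, a phospholipase gene, nearest to the TSS of Noc3l (chr19:38778834-38779164), scored 4.03 in culture and 33.1, 30.8 and 17.5 in vivo. In an intron of Ptprg, a receptor tyrosine phosphatase gene (chr14:12107597-12107810), a region with a SOX match scored 5.39 in culture and 14.6, 21 and 11.4 in vivo. In an intron of Igf2r, the receptor that clears IGF2 (chr17:12723728-12724135), the scores were 5.65 in culture and 21.3, 19.6 and 9.47 in vivo. All 5 regions had no peak at D0 and W1. They belong to 121 regions absent at D0 and present at each of W2, W6 and W12, and of the 10 with the highest in vivo scores, 2 held an AP1 match and 3 a SOX match, with culture scores from 3.01 to 5.74. Of the 61 regions with the opposite pattern, 3 chosen after their values were seen lay near Atl2 (11.1 at D0 and 5.86 at W1), Shcbp1 (10.6 and 12.3) and Abcc4 (9.78 and 8.52).

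With each region counted at the nearest TSS, the genes with the most regions had 6 each. They were Foxq1, a forkhead factor gene, Ptprg, Cdh13, which encodes a cadherin without a transmembrane domain, Auts2, and N6amt1, a methyltransferase gene. At Foxq1, 6 of 22 culture regions were open in SOX9+ARID1a alone, with scores from 3.15 to 6.26, 3 AP1 matches and 2 SOX matches, and 5 of the 6 overlapped an in vivo peak. The one with the highest score (chr13:31547633-31548221), 8207 bp upstream of the TSS and with a SOX match, had in vivo scores of 7.89 at D0, 106 at W2, 62.8 at W6 and 58.0 at W12, and no peak at W1. At Ptprg, 6 of 28 regions were open in SOX9+ARID1a alone, with scores from 3.15 to 6.26, 4 AP1 matches and 2 SOX matches, and 4 had an in vivo peak. At Cdh13, N6amt1 and Auts2 the counts were 6 of 30, 6 of 36 and 6 of 52 culture regions. Over all culture regions the share open in SOX9+ARID1a alone was 2.93%, and these genes were picked for their high counts. Auts2 lies on chromosome 5, where such regions were frequent as described below. Altogether 2230 of 17131 genes (13.0%) were the nearest gene of at least 1 of the 2840 regions, and 1801 of the 2230 had 1.

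None of the 16 gene lists examined stood apart. The share of culture regions at the genes of a list that were open in SOX9+ARID1a alone lay between 1.02% (keratins, 1 of 98) and 5.03% (Hedgehog pathway, 9 of 179), against 2.93% over all regions, and each list's 95% interval held that value. The regions at list genes are given as descriptions, since the nearest gene need not be the gene that a region regulates.

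Among factors of epidermal identity, 9 of 25 genes were nearest to 18 regions (3.89% of 463, 2.47 to 6.06). The strongest was 471262 bp upstream of Klf4, a barrier factor gene (chr4:56003530-56003925), with a score of 11.4, an AP1 match and in vivo scores between 9.97 and 14.7 at all 5 time points. A region near Klf5, which promotes basal cell proliferation (chr14:99611547-99611828), scored 8.35, held an AP1 and a GATA match, and had in vivo scores of 3.86, 3.69, 10.5, 10.9 and 6.78 from D0 to W12. Gata3, required for epidermal differentiation, had a region with a score of 5.39, and Grhl1, a desmosome gene regulator, one with 4.59. Desmosome and tight junction genes had 11 regions (3.21% of 343).

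Among genes of the hair follicle stem cell and outer root sheath, 8 of 26 were nearest to 19 regions (3.61% of 527, 2.32 to 5.56). A region 177076 bp upstream of Sox9 (chr11:112604792-112605503) scored 6.96, held no SOX or AP1 match, and had in vivo peaks at W6 (5.33) and W12 (4.0) only. Regions near Nfatc1, a quiescence factor gene of these stem cells, Npnt, which encodes the matrix protein nephronectin, and Cux1 scored 6.34, 5.39 and 5.33. Of other SOX genes, Sox6, Sox11 and Sox2 had regions with scores of 7.05, 3.61 and 3.30. Hedgehog pathway genes, which drive follicle growth and basal cell carcinoma, had 9 regions (5.03% of 179, 2.67 to 9.28). These included regions near Hhat, whose enzyme acylates the ligand (5.09), the transcription factor genes Gli2 (4.56) and Gli1 (4.01), and the receptor gene Ptch1 (3.63). The Gli2 region (chr1:119108189-119108481) was absent at D0 and W1 and scored 6.86, 6.46 and 6.68 at W2, W6 and W12.

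RUNX, GATA and TEAD factors and the Hippo pathway had 14 regions at 10 of 22 genes (3.97% of 353, 2.38 to 6.55). The region near Lats2, a kinase that restrains YAP (chr14:57729868-57730291), scored 7.40 with an AP1 and a RUNX match. The region near Vgll3, a TEAD cofactor gene, scored 4.89 with an AP1 match. EMT factors and cadherins had 13 regions at 7 of 18 genes (4.64% of 280, 2.73 to 7.78), 6 of them at Cdh13. Among the others, Twist2 had a region with a score of 8.52 and an AP1 match, and Snai2 one with 5.39 and neither match. The region near Cdh11 (chr8:102627236-102627555) scored 5.54, held SOX, AP1 and GATA matches, and had in vivo scores of 15.2, 12.9, 37.8, 23.0 and 18.2 from D0 to W12. AP1 subunit genes had 3 regions at 2 of 13 genes (2.34% of 128, 0.800 to 6.66), with 5.56 near Fosl2 and 3.12 near Fos.

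In the WNT pathway, 10 of 48 genes were nearest to 15 regions (3.26% of 460). They were led by regions near the receptor gene Fzd10 (14, AP1 match), the ligand gene Wnt5b (9.03), Znrf3, whose product removes Frizzled receptors (8.22), and Ctnnb1, which encodes beta-catenin (6.98). In the TGF-beta and BMP pathway, 14 of 604 regions (2.32%) were counted, among them regions near the receptor genes Bmpr1b (7.20) and Bmpr1a (6.62) and the antagonist gene Nog (6.67, AP1, GATA and RUNX matches). EGF receptor family genes had 8 regions (3.19% of 251), near the ligand genes Areg (14.3), Nrg4 (9.61, AP1 and RUNX matches), Nrg1 (5.53) and Btc (5.03). Both Areg and Btc, as well as Fzd10, lie on chromosome 5. Integrin and matrix genes had 10 regions (2.01% of 498), among them regions near Col4a2 (8.34), Itga8 (7.21) and Itgb8 (4.40). Inflammation and stress genes had 8 (3.01% of 266). Among them, the region 5286 bp upstream of Nfkbia, which encodes the inhibitor of NF-kappaB (chr12:55497769-55498097), scored 10.7 in culture and between 35.7 and 48.7 at all 5 in vivo time points. Cartilage targets of SOX9 had 6 regions (4.05% of 148), among them regions near Sox6, Matn1 (6.35), Col2a1 (4.24) and Chst11 (3.80). SWI/SNF subunit genes had 7 (3.52% of 199) by the nearest TSS, which for some of the regions inside Arid1a described above is that of another gene. Among the 7, regions near Arid1b (5.90), Bcl7a (5.37) and Arid2 (4.76) were found.

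The regions were unevenly spread over the chromosomes. Chromosome 5 held 315 of the 2840 regions (11.1%) and 6.07% of all culture regions, so that 5.34% (4.80 to 5.95) of its culture regions were open in SOX9+ARID1a alone. The next were chromosome 8 (4.12%, 3.62 to 4.70) and chromosome 14 (3.91%, 3.29 to 4.65), and the lowest was chromosome 2 (1.92%, 1.65 to 2.24). Chromosome 5 also held 10.1% of the regions open in SOX9+AFOS alone, 7.11% of those open in noDOX alone, 4.06% of those open in WT-SOX9 alone and 3.27% of those open in AFOS alone.

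Scores moved with this pattern. In the 24536 regions present in all 7 culture lists, the SOX9+ARID1a score was compared with the median of the other lists, and each chromosome's median log2 ratio was set against that over all chromosomes. It was 0.51 on chromosome 5, 0.27 on chromosome 16 and 0.24 on chromosome 8, and -0.29 on chromosome 13 and -0.23 on chromosome 7. In the SOX9+AFOS list it was 0.49 on chromosome 5, and in the other 5 lists between -0.25 and 0.17. Across the 20 chromosomes, the share of regions open in SOX9+ARID1a alone and the relative score had a Pearson r of 0.80 and a Spearman rho of 0.68, and r was 0.65 without chromosomes 5 and 16. Both measures come from the same list, so this is a description. Scores on chromosome 5 were thus higher over regions open in all arms as well, and the part of this in the choice of the regions was not tested. Without chromosome 5, 2525 regions remained, with an AP1 match in 26.1%, a SOX match in 8.63% and an in vivo peak in 37.6%.

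**Figure D5:**
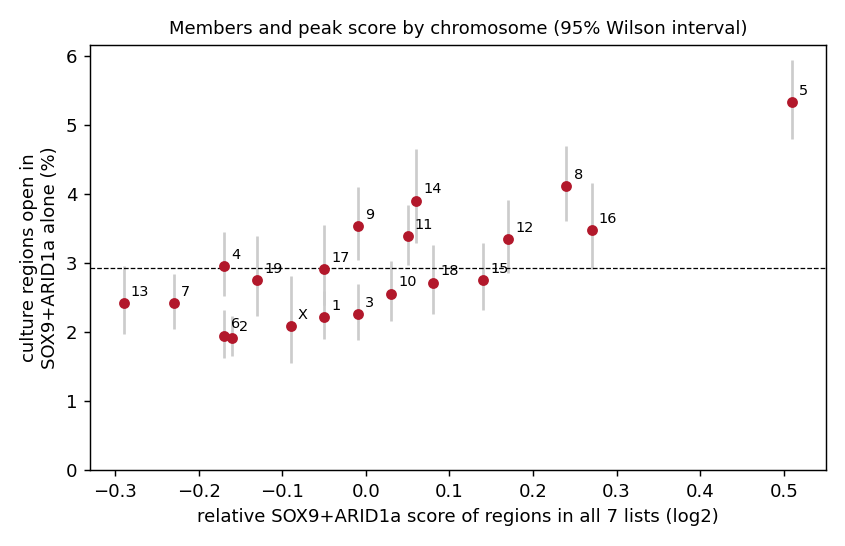
For each chromosome, the share of culture regions open in SOX9+ARID1a alone (with 95% Wilson interval) against the median log2 score of SOX9+ARID1a relative to the other lists in regions present in all 7, less the median over all chromosomes. The dashed line is the share over all chromosomes (2.93%); chromosome 5 stands at 5.34% and 0.51.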

How the data were processed

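ATAC-seq was measured in 24 samples of 12 groups with 2 replicates each. According to the study's methods and the submitters' processing notes, reads were aligned to GRCm38/mm10 (Bowtie2 2.2.9, Picard 2.3.0 and SAMtools 1.9 are named), replicates were merged, and peaks were called with MACS2 2.1.1 on the merged reads with duplicates kept. The deposited score is the MACS2 score normalised within each list, with a minimum of 3 kept by the authors. The in vivo lists also hold a deposited fold enrichment (a ratio) and a −log10 q-value, which were not used here. Read depth is not given in the lists.

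Peaks on the 19 autosomes and X were merged on at least 1 bp of overlap (code checked on simulated peaks). Consensus matches were searched on both strands in the central 200 bp. Positions follow the protein-coding GENCODE vM21 annotation of GRCm38, and distances run from the peak centre to the nearest TSS of a basic coding transcript. The genes named were chosen by rule (the 20 highest scores, up to 4 genes per list, the 10 highest in vivo scores among regions absent at D0 and present at W2, W6 and W12, the 5 genes with most regions, the 3 lowest scores, the 5 highest scores with a SOX match and the highest score near a TSS). The regions, gene lists, consensus sequences and this rule were chosen with earlier results of these data known. Only a part of the genes so chosen is described. Some items are not reported here. For each share a Wilson interval (95%) was computed. It reflects counting error alone. As each group is 1 list, no test between groups was run. Alternatives changed the score minimum, the merging, the set of excluded lists, the search window and the in vivo overlap.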

Additional observations from a re-analysis of the deposited data

How the results depend on the processing

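No paired analysis was possible because replicates were pooled before peak calling and the lists carry no replicate number. For the same reason no replicate was left out. Of the settings tried, 3 were chosen after seeing the data (without chromosome 5, ignoring both lists with AFOS, and a score of at least 10). All settings were run for the regions open in SOX9+ARID1a alone, and their effect on the sets they were compared with was not tested.

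The number of regions was 954 with a score of at least 5 for the SOX9+ARID1a peak, 132 with a score of at least 10, 5389 when both lists with AFOS were ignored, and 7079 when absence was asked from those lists only. It lay between 1994 and 3011 under the others. The SOX share was 10.5% with absence from both lists with AFOS only, 12.9% over the full region and 14.3% over the central 400 bp. The AP1 share was 29.1% with lists cut to the size of the shortest, 29.4% with absence from both lists with AFOS only, 19.9% when those lists were ignored, 22.7% at a score of at least 10, 33.3% over the full region and 33.6% over 400 bp. The GATA share was 12.8% and 14.4% at scores of at least 5 and 10, 9.41% when both lists with AFOS were ignored, 17.1% over the full region and 20.3% over 400 bp. The RUNX share was 15.9% at a score of at least 10, 26.7% over the full region and 30.5% over 400 bp.

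The share near a TSS was 1.64% with peaks merged within 500 bp, 1.52% at a score of at least 10 and 16.1% within 5 kb. The share with any in vivo peak was 45.3% with a score minimum of 5 in all culture lists, 38.6% and 40.9% at member scores of at least 5 and 10, 38.7% with lists of that size, 45.9% with absence from both lists with AFOS only, 40.1% when those were ignored, 39.1% with in vivo peaks within 500 bp and 26% with an in vivo score of at least 5. The share absent at D0 and present at W2, W6 or W12 was 20.1% with the score minimum of 5, 24.1% with absence from both lists with AFOS only, 14.4% at a score of at least 10 and 12.5% with an in vivo score of at least 5. The cause of these differences was not tested, apart from the wider windows, which hold more sequence. Read depth is unknown, and regions near the score minimum may be missed in other lists at their depth.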
